A study of Mus musculus with 23 samples.

Results

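This report describes loss of p16 in mice that carry an App knock-in, as seen in the messenger RNA of the hippocampus. Libraries of mice homozygous for both alleles (APP<NLGF/NLGF>P16<KO/KO> in the labels, AppNLGF_p16KO below, samples 18 to 23, n = 6) were set against libraries of mice homozygous for the knock-in alone (AppNLGF, samples 13 to 17, n = 5). These 11 libraries, of 23 in the series, were chosen by genotype label and are described across all genes. The same contrast with normal App, p16KO (n = 6) against WT (n = 6), is used only for values side by side. All mice were about 5 months of age, and each library holds polyadenylated RNA of both hippocampi. Both groups of the main comparison carry the NLGF allele on each copy of App, so effects of the knock-in itself cannot be read from it. The labels do not state which part of the p16 gene was removed, the sex of the mice, the strain background or litters. Each sample number was taken as 1 mouse, and p-values measure the spread between these samples.

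p16INK4a, a product of Cdkn2a, blocks the kinases CDK4 and CDK6 that act with D-type cyclins. These kinases phosphorylate the Rb family, which frees E2F factors to switch on genes of DNA synthesis, and p16 accumulates in senescent cells. In the AppNLGF line the mouse App gene, under its own promoter, has a humanised amyloid-beta region and the Swedish, Iberian and Arctic familial Alzheimer mutations. Amyloid plaques form without excess App, and microglia around them switch on genes such as Cst7, Clec7a, Itgax and Trem2. Because tissue was sequenced, a lower level of a transcript in fewer cells and less transcript per cell cannot be told apart.

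Total counts were 48.6 to 59.5 M reads in AppNLGF_p16KO and 40.7 to 57.0 M reads in AppNLGF libraries. Xist marked 3 of 6 AppNLGF_p16KO libraries (19, 22 and 23) and 2 of 5 AppNLGF libraries (15 and 16). Hippocampal markers were abundant in every library of both groups. The 15 dentate granule cell genes together held 836 to 994 CPM in AppNLGF_p16KO and 866 to 1050 CPM in AppNLGF. CPM are reads for each 1000000 reads of the tested genes, after scaling between libraries. Of these 15 genes, 0 were absent from either group. The 11 CA1 genes held 973 to 1064 CPM in AppNLGF_p16KO and 905 to 953 CPM in AppNLGF. Of 37173 genes in the table, 19423 had enough reads to be tested.

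Single libraries stood apart from the others of their group, and the results are given with and without them. On the first principal component of all 23 libraries, which held 26.3% of the variance, AppNLGF_p16KO 23 scored 16.2. The other 5 libraries of its group scored -31.7 to -6.45, and AppNLGF libraries -0.95 to 21.1. Of the 4570 genes with an unadjusted p under 0.05 in the main comparison, 81.8% were nearer to the AppNLGF mean than to the mean of the other AppNLGF_p16KO libraries in AppNLGF_p16KO 23. The same share was 2.87% to 21.2% in the other 5. Because AppNLGF_p16KO 23 is itself part of the comparison that chose those genes, these shares are a description.

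**Figure D1:**
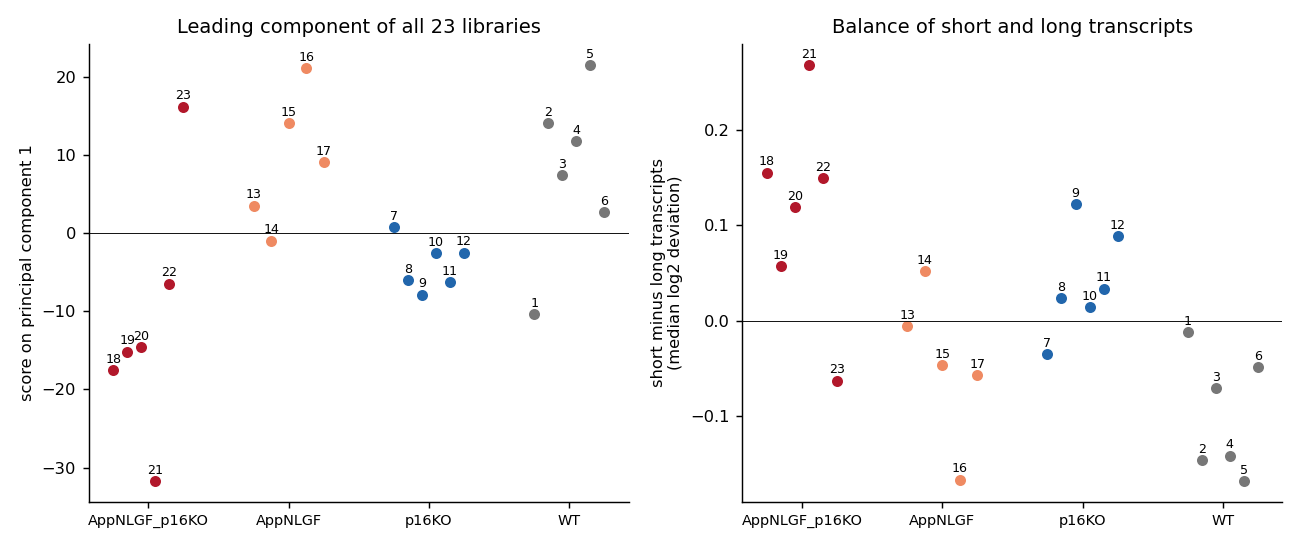
Each point is 1 library, numbered as in the labels. The left panel shows the score on the first principal component, with AppNLGF_p16KO 23 at 16.2 among the AppNLGF libraries. The right panel shows how far short transcripts stood above long ones (median log2 deviation), which was 0.057 to 0.27 in AppNLGF_p16KO 18 to 22 and -0.063 in AppNLGF_p16KO 23.

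A measure of transcript length moved with the genotype. Short transcripts (up to 628 bases) against long ones (over 3619 bases) stood at a median log2 deviation of 0.057 to 0.27 in AppNLGF_p16KO 18 to 22, at -0.063 in AppNLGF_p16KO 23 and at -0.17 to 0.052 in AppNLGF. Across 10 bins of length, the median log2 fold change was 0.06 for the shortest genes and -0.09 for the longest. A like trend was present with normal App. In p16KO minus WT these medians were 0.05 and -0.09, and short against long transcripts stood at -0.035 to 0.12 in p16KO and -0.17 to -0.012 in WT. Both p16 contrasts thus hold this trend where they are set side by side below. The part of length in the results was not tested beyond a fit that removed the trend, which is given beside the gene groups below.

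AppNLGF_p16KO 22 lay near AppNLGF at some of the genes called in p16KO minus WT, and those given here were chosen after their values were seen. At Cyp2j13, a cytochrome P450 gene of chromosome 4, it held 0.0374 CPM, against 0.0365 to 0.142 CPM in AppNLGF, while the other 5 libraries of its group held 0.337 to 0.468 CPM. The same library was the lowest of its group at Hdhd3, Alad, Tusc1, Gm20075 and Gm13453, described below, though at Hdhd3 and Tusc1 it lay above all AppNLGF libraries. AppNLGF_p16KO 21 lay past the distance limit that the submitters used for outlying samples (squared distance 12.4, limit 11.07). Without it the main comparison called 6 genes, as many as with it.

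Cdkn2a itself (chr4:89274471-89294653, GRCm38) was close to the floor of detection. AppNLGF_p16KO libraries 18 to 23 held 0, 6, 6, 2, 8 and 2 reads, and AppNLGF libraries 13 to 17 held 2, 6, 9, 4 and 4 reads. The mean was 0.0769 CPM in AppNLGF_p16KO and 0.0946 CPM in AppNLGF (two-sided exact permutation test, p = 0.595, 462 splits). The groups overlapped, and a loss of reads in AppNLGF_p16KO was not found. A count over the whole gene mixes transcripts of p16INK4a with those of p19ARF. The groups with normal App held 4 reads in p16KO (6 libraries, mean 0.0117 CPM) and 17 in WT (6 libraries, mean 0.0504 CPM). With so few reads this gene could not check the label of any single library. Whether AppNLGF_p16KO 22 and 23 carry the genotype on their labels was not tested, and directions below refer to libraries labelled as lacking p16.

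The promoters of Hdhd3 and Alad are shown because Hdhd3 had the smallest p of the comparison and the called gene Alad is its neighbour. They are RefSeq windows of GRCm38.p6 from 250 bases before to 50 bases after a start site, at chr4:62502151-62502450, minus strand, and at chr4:62519860-62520159, minus strand. Capitals mark GGGCGG, the core of a GC box, on either strand, some copies overlapping. The window of Hdhd3 has 1 copy and that of Alad 6. Of 32851 promoter windows of this length 35.7% hold at least 1. The RefSeq start of Hdhd3 lies inside the Ensembl gene.
Hdhd3: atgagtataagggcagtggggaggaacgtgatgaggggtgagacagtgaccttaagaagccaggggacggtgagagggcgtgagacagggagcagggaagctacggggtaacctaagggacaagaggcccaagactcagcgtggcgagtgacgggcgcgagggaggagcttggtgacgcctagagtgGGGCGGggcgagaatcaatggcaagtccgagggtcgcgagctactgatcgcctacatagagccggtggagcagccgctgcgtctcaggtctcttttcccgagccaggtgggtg
Alad: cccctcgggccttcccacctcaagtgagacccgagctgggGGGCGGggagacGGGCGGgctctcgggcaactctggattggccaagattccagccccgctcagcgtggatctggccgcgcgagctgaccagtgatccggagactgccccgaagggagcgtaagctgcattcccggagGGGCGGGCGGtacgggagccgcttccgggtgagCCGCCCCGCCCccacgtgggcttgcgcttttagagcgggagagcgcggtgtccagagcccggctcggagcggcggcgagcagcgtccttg

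Stretches of the promoters of Ifit1 and Ifit3, interferon-stimulated genes, are shown because that group was lower in AppNLGF_p16KO, described below. Capitals mark GAAA, any 2 bases and GAAA again, on either strand, the core shared by interferon-stimulated response elements. The stretches lie at chr19:34640775-34640834, plus strand (Ifit1) and at chr19:34583363-34583422, plus strand (Ifit3), read from RefSeq windows of GRCm38.p6. The motif occurred in 15 of 28 windows matched to the interferon list (53.6%, from 24 of its 35 genes), against 3.44% of all 32851 windows. A match describes letters only and shows no binding.
Ifit1: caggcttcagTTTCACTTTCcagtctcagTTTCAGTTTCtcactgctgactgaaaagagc
Ifit3: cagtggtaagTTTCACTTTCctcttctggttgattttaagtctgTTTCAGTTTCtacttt

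The comparison asked what loss of p16 changes in the hippocampus when App carries the knock-in. Genes that passed edgeR's quasi-likelihood test at a Benjamini-Hochberg adjusted p under 0.05 are called below. With all libraries, 6 of 19423 genes passed (0.0309%), 5 higher (0.0257%) and 1 lower (0.00515%) in AppNLGF_p16KO. An unadjusted p under 0.05 was reached by 4570 genes (23.5%), 2482 higher (12.8%) and 2088 lower (10.8%), and these shares serve below as the background for gene groups. Without AppNLGF_p16KO 23 the same test called 4156 of 19342 genes (21.5%), 2202 higher (11.4%) and 1954 lower (10.1%). Without AppNLGF_p16KO 22 it called 21 genes (0.108%), and without both libraries 4203 (21.5%), a setting chosen after the data were seen. Leaving out any other library of the comparison gave 2 to 7 calls, the fewest without AppNLGF 16. DESeq2 called 198 genes with all libraries (1.02%). The number of genes called thus moved with single libraries, with the test and with the groups fitted, and no single count describes the comparison. AppNLGF_p16KO 23 is the library of its group that lay nearest to AppNLGF, and calls rose over all genes when it was left out. The cause of that rise was not tested. Calls in that fit are given below as a description, to be read against 11.4% higher and 10.1% lower.

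Hdhd3, which encodes a protein of the haloacid dehalogenase family, was the gene with the smallest p (ENSMUSG00000038422, chr4:62499008-62503467). Its level was 6.1 to 11.4 CPM (median 9.64) in AppNLGF_p16KO libraries, against 4.86, 3.84, 5.06, 4.14 and 4.54 CPM in AppNLGF libraries. Every AppNLGF_p16KO library lay above every AppNLGF library, with AppNLGF_p16KO 22 (6.10 CPM) and 23 (6.86 CPM) nearest to them. It rose by log2 1.02 ± 0.15, adjusted p = 0.00427, where log2 values are fold changes of AppNLGF_p16KO over AppNLGF with their SE. The call held in all 11 fits without 1 library of the comparison and was lost with the compared groups alone (adjusted p = 0.263). Non-overlapping groups with the higher values in AppNLGF_p16KO were found for 118 genes tested (0.608%).

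Alad, the aminolevulinate dehydratase of haem synthesis, is its neighbour (ENSMUSG00000028393, chr4:62509169-62519918). It had 23.0 to 39.7 CPM (median 36.9) in AppNLGF_p16KO libraries, against 18.7, 20.8, 23.1, 18.3 and 19.3 CPM in AppNLGF libraries. AppNLGF_p16KO 22, at 23.0 CPM, fell within the AppNLGF range and the other 5 lay above it. Alad rose by log2 0.77 ± 0.12, adjusted p = 0.00771. The call was lost without AppNLGF 16 (adjusted p = 0.0726, range over all alternatives 3.04e-07 to 0.263).

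Tusc1, a single-exon gene named as a tumour suppressor candidate, is the called gene that lies within 10 Mb of Cdkn2a (ENSMUSG00000054000, chr4:93334138-93335511). It had 6.98 to 10.7 CPM (median 9.16) in AppNLGF_p16KO libraries, against 6.59, 6.54, 5.96, 5.93 and 5.67 CPM in AppNLGF libraries. The groups did not overlap, and AppNLGF_p16KO 22 was again the lowest. It rose by log2 0.58 ± 0.10, adjusted p = 0.016. The call was lost without AppNLGF 14, 15, 16 or 17 or AppNLGF_p16KO 18 or 20 (adjusted p up to 0.107, range over all alternatives 3.02e-05 to 0.263).

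Predicted genes completed the higher set. Gm20075 (chromosome 13) had 0.168 to 2.0 CPM (median 1.13) in AppNLGF_p16KO libraries, against 0.133, 0.11, 0.139, 0.195 and 0.0733 CPM in AppNLGF libraries, and Gm13453, a processed pseudogene on chromosome 2, had 0.0748 to 1.3 CPM (median 0.888) in AppNLGF_p16KO libraries, against 0.0952, 0, 0.0696, 0.071 and 0.122 CPM in AppNLGF libraries. AppNLGF_p16KO 22, at 0.168 and 0.0748 CPM, lay within the AppNLGF range at both, and the other 5 libraries lay above it. Gm20075 rose by log2 3.14 ± 0.46, adjusted p = 0.00427, which held in all 11 fits without 1 library and was lost with the compared groups alone (adjusted p = 0.263). Gm13453 rose by log2 3.47 ± 0.59, adjusted p = 0.016, and lost its call without AppNLGF 13, 14, 15 or 16 or AppNLGF_p16KO 18 or 20 (up to 0.107, range over all alternatives 6.31e-07 to 0.263). Reads of a pseudogene can be shared with its parent gene, so its level is uncertain. Both genes were scarce, so their fold changes are imprecise, and both are named after their values were seen, since the naming rule leaves out predicted genes.

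Cd2ap was the gene that fell. It encodes an adaptor between membrane proteins and actin and is a known risk locus of late-onset Alzheimer disease in humans (ENSMUSG00000061665, chr17:42792951-42876665). It had 17.5 to 26.1 CPM (median 24.6) in AppNLGF_p16KO libraries, against 31.8, 29.6, 30.7, 31.4 and 33.7 CPM in AppNLGF libraries. All 6 AppNLGF_p16KO libraries lay below all 5 AppNLGF libraries, a pattern shared by 101 genes tested (0.52%), and AppNLGF_p16KO 21 was the lowest. It fell, with a difference of log2 -0.43 ± 0.08, adjusted p = 0.0473. The call was lost without any of the 5 AppNLGF libraries, without AppNLGF_p16KO 18 or 20, and with the length trend removed (adjusted p = 0.0839, range over all alternatives 2.56e-05 to 0.263).

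**Figure D2:**
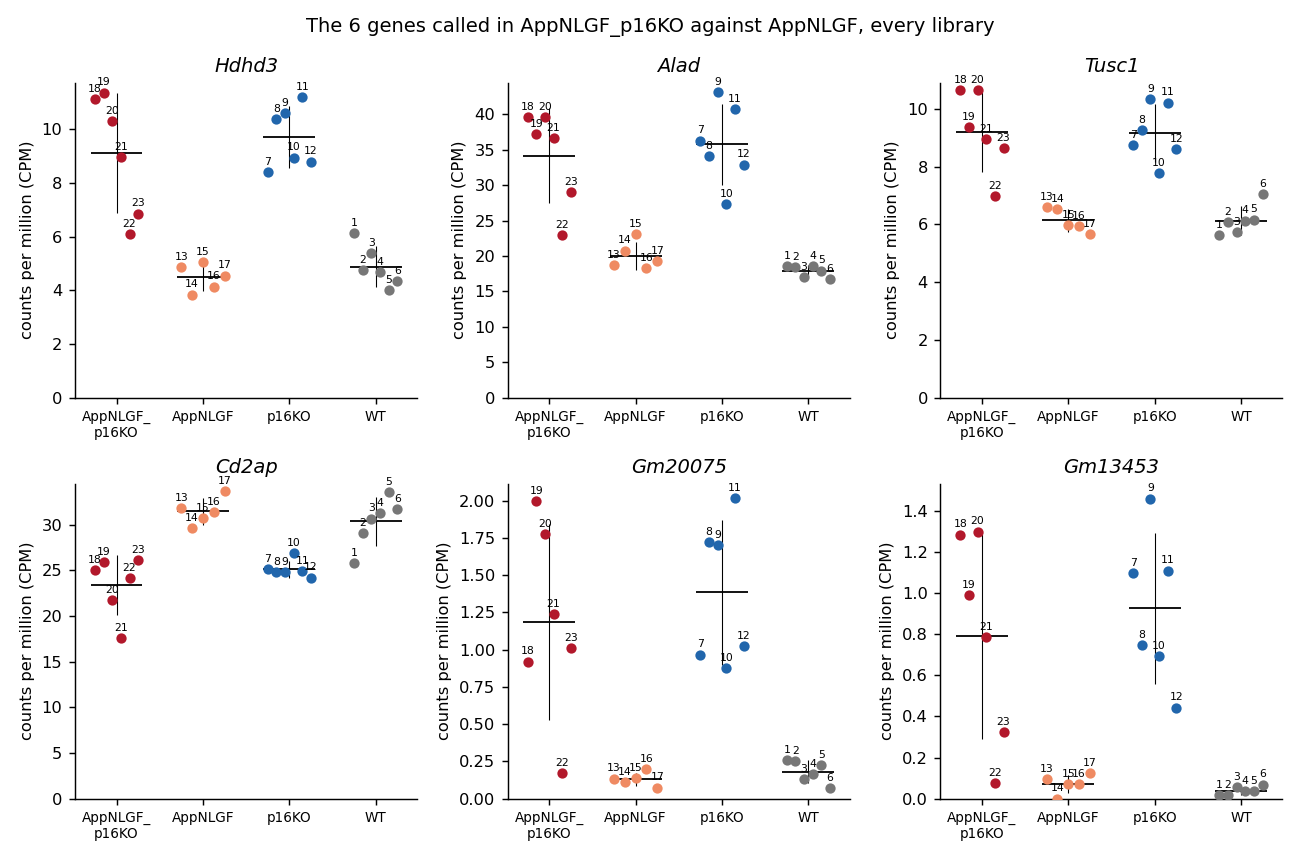
Level of the 6 called genes in every library (points, numbered as in the labels), with group mean (horizontal line) and SD (vertical line), in CPM on axes that start at 0. AppNLGF_p16KO 22 lies at or near the AppNLGF libraries for the 5 higher genes, while at Cd2ap all 6 AppNLGF_p16KO libraries (17.5 to 26.1 CPM) lie below all 5 AppNLGF libraries (29.6 to 33.7 CPM).

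The same genes can be set beside the p16 contrast on normal App, which shares no library with the comparison. In p16KO minus WT, 60 of 19423 genes were called (0.309%), and 5 of the 6 genes called in AppNLGF_p16KO were among them. This is 83.3% of one list and 8.33% of the other. Hdhd3 had 9.72 ± 1.15 CPM in p16KO and 4.89 ± 0.771 CPM in WT (log2 0.99 ± 0.14, adjusted p = 8.38e-04). Means are given with their SD, over 6 libraries in every group but AppNLGF, which has 5. Alad had 35.8 ± 5.7 CPM in p16KO and 17.9 ± 0.814 CPM in WT (log2 1.0 ± 0.11, adjusted p = 1.09e-04), and Tusc1 9.16 ± 0.998 CPM in p16KO and 6.13 ± 0.50 CPM in WT (log2 0.58 ± 0.09, adjusted p = 0.00762). Cd2ap was lower without passing, with 25.1 ± 0.907 CPM in p16KO and 30.3 ± 2.66 CPM in WT (log2 -0.27 ± 0.08, adjusted p = 0.0932). The difference between the contrasts did not pass for any of the 6 (interaction adjusted p = 0.897 to 0.998).

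Of the 60 genes called in p16KO, 59 had the same sign in AppNLGF_p16KO minus AppNLGF, and 43 of them also had an unadjusted p under 0.05 there. Over all genes tested 67.8% had the same sign. On chromosome 4, 18 of 18 had the same sign and 14 an unadjusted p under 0.05. Off chromosome 4 these counts were 41 and 29 of 42. Frrs1l, needed for assembly of AMPA receptors, was at 361 to 505 CPM (median 395) in AppNLGF_p16KO, against 456 to 557 CPM (median 521) in AppNLGF (log2 -0.34 ± 0.08, adjusted p = 0.112). AppNLGF_p16KO 22, at 505 CPM, was the library that overlapped AppNLGF. Without it Frrs1l passed (adjusted p = 0.0195, range over all alternatives 0.00201 to 0.317). Leaving out the library that overlapped favours a pass, so this is a description. Phf24, a brain gene linked to GABA-B signalling, was at 160.2 to 234 CPM (median 183) in AppNLGF_p16KO, against 227 to 262 CPM (median 245) in AppNLGF (log2 -0.35 ± 0.09, adjusted p = 0.112). Rab3b, a synaptic vesicle GTPase called in p16KO (log2 -0.68 ± 0.12, adjusted p = 0.0166), was at 36.8 to 69.5 CPM (median 46.2) in AppNLGF_p16KO, against 51.4 to 59.9 CPM (median 55.3) in AppNLGF and did not pass (log2 -0.16 ± 0.12, adjusted p = 0.435). AppNLGF_p16KO 22 had the highest Rab3b level of its group, 69.5 CPM.

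Chromosome 4 carries Cdkn2a, and DNA that flanks a targeted gene is inherited with it. There, 3 of 1110 genes tested were called (0.27%) and 304 had an unadjusted p under 0.05 (27.4%, against 23.5% of all genes). Within 10 Mb of Cdkn2a, 1 of 70 genes was called and 25 had an unadjusted p under 0.05 (35.7%), 8 higher and 17 lower. An unadjusted p under 0.05 in both p16 contrasts was found for 12 of those 70 genes (17.1%), all 12 with the same sign, and for 6.56% of all genes tested. Over all genes tested, 1258 of the 1275 genes with such p had the same sign, so that agreement is not particular to this region. The neighbours of Cdkn2a did not pass. Cdkn2b, which encodes the related inhibitor p15INK4b, had 0.73 to 1.29 CPM (median 1.04) in AppNLGF_p16KO libraries, against 0.647, 0.639, 0.574, 0.888 and 0.904 CPM in AppNLGF libraries (log2 0.52 ± 0.23, adjusted p = 0.186). Mtap, of methionine salvage, had 12.1 ± 1.85 CPM in AppNLGF_p16KO and 13.0 ± 0.94 CPM in AppNLGF (log2 -0.11 ± 0.09, adjusted p = 0.481). Effects of p16 and of flanking DNA cannot be told apart in this design.

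**Figure D3:**
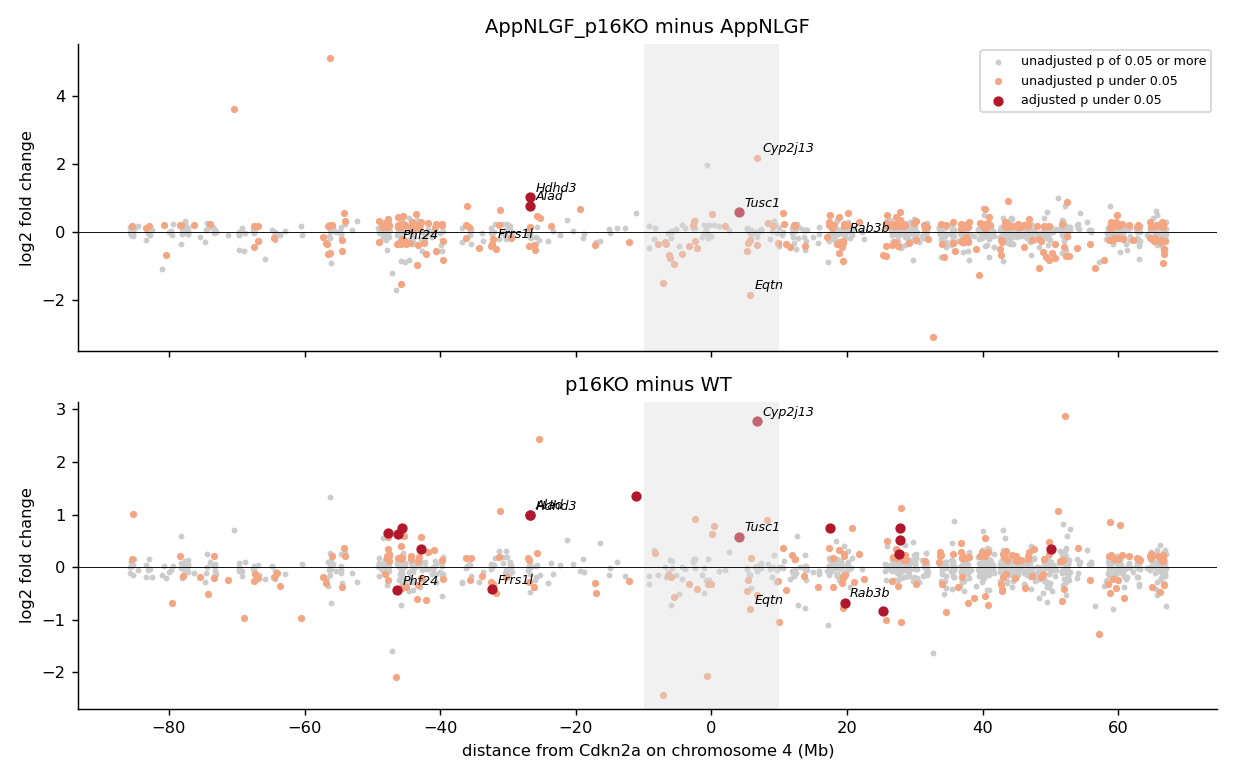
Log2 fold change of every gene tested on chromosome 4 against its distance from Cdkn2a in Mb, in AppNLGF_p16KO minus AppNLGF (top) and p16KO minus WT (bottom). The shaded band marks 10 Mb on either side, pale points an unadjusted p of 0.05 or more, and dark red points an adjusted p under 0.05, which are 3 genes at the top and 18 at the bottom.

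Other genes with the smallest p did not pass with all libraries, and their values follow. Eqtn, a sperm acrosome gene near Cdkn2a, was scarce, with 0.0594 to 0.412 CPM (median 0.156) in AppNLGF_p16KO libraries, against 0.647, 0.621, 0.765, 0.781 and 0.635 CPM in AppNLGF libraries (log2 -1.84 ± 0.36, adjusted p = 0.0755). The groups did not overlap. Cyp2j13 had 0.0374 to 0.468 CPM (median 0.364) in AppNLGF_p16KO libraries, against 0.0571, 0.0365, 0.0522, 0.142 and 0.0733 CPM in AppNLGF libraries (log2 2.19 ± 0.49, adjusted p = 0.111), and AppNLGF_p16KO 22 alone lay within the AppNLGF range. Atp6v1g1, a subunit of the vacuolar proton pump on chromosome 4, had 37.0 ± 5.76 CPM in AppNLGF_p16KO and 26.8 ± 2.16 CPM in AppNLGF (log2 0.46 ± 0.09, adjusted p = 0.0929). Ipp and Scp2, both also on chromosome 4, had log2 0.45 ± 0.10, adjusted p = 0.111 and log2 0.43 ± 0.10, adjusted p = 0.111. Ipp encodes a kelch-domain actin-binding protein and Scp2 a sterol carrier of peroxisomes. All 3 were higher than the AppNLGF mean in 6 of 6 libraries.

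On other chromosomes, Spef2, of the sperm and ciliary axoneme, had 1.96 to 3.75 CPM (median 3.12) in AppNLGF_p16KO libraries, against 5.33, 4.75, 5.44, 6.43 and 4.76 CPM in AppNLGF libraries (log2 -0.88 ± 0.17, adjusted p = 0.0755), and its groups did not overlap. The groups also did not overlap at Mgst3, a glutathione-dependent microsomal enzyme, with 62.3 ± 7.55 CPM in AppNLGF_p16KO and 47.3 ± 1.97 CPM in AppNLGF (log2 0.40 ± 0.08, adjusted p = 0.0933), nor at Med1, a Mediator subunit, with 46.2 ± 4.9 CPM in AppNLGF_p16KO and 61.1 ± 4.49 CPM in AppNLGF (log2 -0.40 ± 0.08, adjusted p = 0.0973). Ddah2, which breaks down methylarginines, had 10.8 ± 0.846 CPM in AppNLGF_p16KO and 8.0 ± 0.50 CPM in AppNLGF (log2 0.43 ± 0.09, adjusted p = 0.0976), and Aox1, an aldehyde oxidase, 9.13 ± 1.3 CPM in AppNLGF_p16KO and 13.2 ± 1.07 CPM in AppNLGF (log2 -0.53 ± 0.11, adjusted p = 0.111). Aox1 was lower than the AppNLGF mean in 6 of 6 libraries, and was at log2 0.02 in p16KO minus WT. Nwd1 (log2 -0.41 ± 0.09, adjusted p = 0.0976), Zfp976 (log2 -0.96 ± 0.21, adjusted p = 0.111), Pcdhga2 of the gamma protocadherins (log2 -0.58 ± 0.13, adjusted p = 0.111) and Herc6, an interferon-induced ligase (log2 -0.46 ± 0.10, adjusted p = 0.111), were lower than that mean in 6 of 6. Ckmt1, the mitochondrial creatine kinase of brain (log2 0.38 ± 0.08, adjusted p = 0.111), and Ly6g6e (log2 0.73 ± 0.16, adjusted p = 0.111) were higher in 6 of 6. All genes of this and the preceding paragraph passed without AppNLGF_p16KO 23, with adjusted p of 0.00294 to 0.00797. In that fit 21.5% of all genes passed. These genes were chosen for a small p with all libraries, so their passing is a description. Over all alternatives their adjusted p ran from 1.38e-06 to 0.317.

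Genes of the pathway in which p16 acts were examined next. Of 16 genes of the D-type cyclins, their kinases and the Rb family, 0 were called with all libraries (median log2 fold change 0.04, 2 higher and 1 lower at an unadjusted p under 0.05), against a median of 0.01 and 12.8% higher and 10.8% lower over all genes. Cdk4, a kinase that p16 inhibits, had 45.2 to 56.7 CPM (median 53.2) in AppNLGF_p16KO, against 42.7 to 50.2 CPM (median 45.8) in AppNLGF (log2 0.17 ± 0.06, adjusted p = 0.131), and passed without AppNLGF_p16KO 23 (log2 0.20, adjusted p = 0.0168, range over all alternatives 0.0112 to 0.344). Rb1, the retinoblastoma gene, was below the AppNLGF mean in 6 of 6 libraries, with 40.5 to 51.3 CPM (median 48.6) in AppNLGF_p16KO, against 48.8 to 56.9 CPM (median 53.6) in AppNLGF (log2 -0.14 ± 0.06, adjusted p = 0.18). Ccnd2, the most abundant cyclin D gene here, had 120.3 ± 10.0 CPM in AppNLGF_p16KO and 119 ± 7.68 CPM in AppNLGF (log2 0.02 ± 0.07, adjusted p = 0.903) and Rbl2, which encodes the Rb relative p130, 59.1 ± 3.64 CPM in AppNLGF_p16KO and 62.0 ± 2.12 CPM in AppNLGF (log2 -0.07 ± 0.05, adjusted p = 0.393).

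Among 6 tested inhibitors of cyclin-dependent kinases none was called with all libraries. Cdkn2d, encoding p19INK4d, had 39.6 to 58.9 CPM (median 51.6) in AppNLGF_p16KO libraries, against 43.8, 44.3, 39.1, 39.9 and 41.1 CPM in AppNLGF libraries (log2 0.28 ± 0.08, adjusted p = 0.112). The library at 39.6 CPM is AppNLGF_p16KO 23, and the other 5 lay above all AppNLGF libraries. Cdkn1b, encoding p27, was at 63.4 ± 5.7 CPM in AppNLGF_p16KO and 62.3 ± 5.17 CPM in AppNLGF (log2 0.02 ± 0.07, adjusted p = 0.853).

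E2F targets and proliferation genes were at a median log2 of 0.12, with 23 of 30 higher, 2 at an unadjusted p under 0.05 and 0 called. Pcna, the DNA polymerase clamp, was one of them, with 19.6 to 27.2 CPM (median 24.6) in AppNLGF_p16KO libraries, against 20.4, 21.3, 19.8, 20.5 and 18.7 CPM in AppNLGF libraries (log2 0.27 ± 0.07, adjusted p = 0.112). AppNLGF_p16KO 23 was the lowest of its group and the other 5 lay above all AppNLGF libraries. Pcna was the 1 list member called without AppNLGF_p16KO 23 (log2 0.33, adjusted p = 0.00493, range over all alternatives 7.12e-05 to 0.317). Rrm1, a subunit of ribonucleotide reductase, had 22.5 ± 2.59 CPM in AppNLGF_p16KO and 21.0 ± 1.05 CPM in AppNLGF (log2 0.10 ± 0.07, adjusted p = 0.374). The 24 p53 targets had a median log2 of 0.06 with 0 called. Ei24, induced by p53, had 133 ± 11.3 CPM in AppNLGF_p16KO and 118 ± 8.66 CPM in AppNLGF (log2 0.17 ± 0.06, adjusted p = 0.13), and Plk2 219.7 ± 18.4 CPM in AppNLGF_p16KO and 211 ± 4.66 CPM in AppNLGF (log2 0.06 ± 0.06, adjusted p = 0.572). The senescence secretory phenotype, 32 genes of cytokines, proteases and growth factor binding proteins, was at a median log2 of -0.06 with 2 higher and 1 lower at an unadjusted p under 0.05 and 0 called. Igfbp5, which binds insulin-like growth factors, had 139 ± 33.8 CPM in AppNLGF_p16KO and 166 ± 26.7 CPM in AppNLGF (log2 -0.26 ± 0.13, adjusted p = 0.215) and the protease inhibitor Timp2 438 ± 36.4 CPM in AppNLGF_p16KO and 386 ± 41.9 CPM in AppNLGF (log2 0.18 ± 0.08, adjusted p = 0.16).

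The App knock-in that sets off the plaque response of microglia is carried by both groups, and 0 genes of that response were called with all libraries. The 38 plaque-induced genes had a median log2 fold change of 0.06, and 5 were higher and 1 lower at an unadjusted p under 0.05. Cst7, encoding cystatin F, had 3.68 to 6.59 CPM (median 4.43) in AppNLGF_p16KO libraries, against 7.84, 5.5, 6.92, 3.71 and 5.69 CPM in AppNLGF libraries (log2 -0.35 ± 0.26, adjusted p = 0.424). The intervals remained wide, at -0.88 to 0.19 on the log2 scale for Cst7. The beta-glucan receptor gene Clec7a had 3.03 to 4.49 CPM (median 3.49) in AppNLGF_p16KO libraries, against 4.25, 3.42, 3.44, 2.63 and 5.06 CPM in AppNLGF libraries (log2 -0.02 ± 0.22, adjusted p = 0.971, 95% interval -0.46 to 0.43). The groups overlapped for both. Itgax, the CD11c integrin, was at 1.45 to 2.99 CPM (median 2.11) in AppNLGF_p16KO, against 1.77 to 3.59 CPM (median 2.8) in AppNLGF (log2 -0.30 ± 0.23, adjusted p = 0.426).

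Trem2, the lipid receptor of plaque-associated microglia, had 20.6 to 28.5 CPM (median 23.5) in AppNLGF_p16KO libraries, against 23.0, 21.1, 26.0, 20.9 and 22.9 CPM in AppNLGF libraries (log2 0.06 ± 0.09, adjusted p = 0.694, 95% interval -0.12 to 0.25). Its signalling adaptor Tyrobp had 25.9 ± 3.13 CPM in AppNLGF_p16KO and 24.4 ± 2.83 CPM in AppNLGF (log2 0.09 ± 0.09, adjusted p = 0.562). For Apoe, the lipid carrier and an abundant member, levels were 1585 ± 159 CPM in AppNLGF_p16KO and 1476 ± 97.1 CPM in AppNLGF (log2 0.10 ± 0.06, adjusted p = 0.327). Fth1, the ferritin heavy chain, had 2260.2 ± 296 CPM in AppNLGF_p16KO and 2084 ± 181 CPM in AppNLGF (log2 0.12 ± 0.08, adjusted p = 0.345). A p that misses the threshold does not show that these levels are alike, and for Trem2 the interval covers differences up to 0.25 on the log2 scale.

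Without AppNLGF_p16KO 23, 4 of the 38 plaque-induced genes were called higher and 1 lower, no more than the shares over all genes in that fit (11.4% and 10.1%). The gene called lower was Lilrb4a, an inhibitory immunoglobulin-like receptor, at 0.0207 to 0.377 CPM (median 0.184) in AppNLGF_p16KO, against 0.338 to 0.684 CPM (median 0.452) in AppNLGF with all libraries (log2 -1.22 ± 0.42, adjusted p = 0.118), and log2 -1.53, adjusted p = 0.0157 without AppNLGF_p16KO 23 (range over all alternatives 0.00778 to 0.317). The protease gene Ctsb, at 611 to 886 CPM (median 714) in AppNLGF_p16KO, against 589 to 683 CPM (median 641) in AppNLGF, was one of the 4 higher (log2 0.22, adjusted p = 0.0194, range over all alternatives 0.0135 to 0.378). The list of homeostatic microglia genes was at a median log2 of -0.01 (23 genes, 0 called). Because tissue was sequenced, their reads need not come from microglia alone. This holds also for the abundant members Rhob and Bin1, which weigh on the summed level. Rhob had 379.9 ± 19.5 CPM in AppNLGF_p16KO and 346 ± 37.1 CPM in AppNLGF (log2 0.13 ± 0.07, adjusted p = 0.251) and Bin1 262 ± 21.5 CPM in AppNLGF_p16KO and 272 ± 8.15 CPM in AppNLGF (log2 -0.05 ± 0.06, adjusted p = 0.607). The summed level of that list was 1456 to 1532 CPM in AppNLGF_p16KO and 1451 to 1487 CPM in AppNLGF.

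Complement genes were at a median log2 of -0.03, with 0 higher and 2 lower of 19 at an unadjusted p under 0.05 and 0 called. C1qa and C1qb, chains of the initiating C1q complex, had 68.4 ± 7.92 CPM in AppNLGF_p16KO and 65.0 ± 7.13 CPM in AppNLGF (log2 0.07 ± 0.09, adjusted p = 0.633) and 63.5 ± 10.6 CPM in AppNLGF_p16KO and 63.4 ± 7.31 CPM in AppNLGF (log2 0.00 ± 0.11, adjusted p = 0.991). Lysosomal genes were at 0.06 with 0 of 35 called, 5 higher and 0 lower at an unadjusted p under 0.05. Psap, precursor of the saposins, had 1879.7 ± 161 CPM in AppNLGF_p16KO and 1710.3 ± 74.9 CPM in AppNLGF (log2 0.14 ± 0.07, adjusted p = 0.24). The proton pump subunit gene Atp6v1a had 944 ± 150.1 CPM in AppNLGF_p16KO and 807 ± 71.0 CPM in AppNLGF (log2 0.23 ± 0.08, adjusted p = 0.13). Atp6v0d1, of the same pump, had 223 to 289 CPM (median 269.6) in AppNLGF_p16KO, against 215 to 254 CPM (median 227) in AppNLGF (log2 0.19 ± 0.06, adjusted p = 0.112). Without AppNLGF_p16KO 23, 5 of the 35 were called, all higher, a share near that of all genes (11.4%), and both pump genes were among them. Antigen presentation was at a median log2 of -0.02 with 0 of 18 called. Its most abundant members B2m and H2-D1 had log2 -0.24 ± 0.12, adjusted p = 0.21 and log2 0.40 ± 0.24, adjusted p = 0.324, and reads of H2-D1 can be shared with other class I genes.

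The type I interferon response, a set of antiviral genes switched on by STAT and IRF factors, was lower in AppNLGF_p16KO. None of 34 members tested was called with all libraries, 0 were higher and 23 lower at an unadjusted p under 0.05 (all genes 12.8% and 10.8%), and the median log2 fold change was -0.49 (all genes 0.01). Without AppNLGF_p16KO 23, 15 were called lower and 0 higher. Ifit1, which binds uncapped viral RNA, had 0.961 to 2.1 CPM (median 1.65) in AppNLGF_p16KO libraries, against 2.76, 2.14, 2.54, 4.33 and 6.28 CPM in AppNLGF libraries (log2 -1.14 ± 0.27, adjusted p = 0.112). All 6 AppNLGF_p16KO libraries lay below all AppNLGF libraries. Ifit3, its partner, had 2.6 to 4.51 CPM (median 3.37) in AppNLGF_p16KO libraries, against 4.97, 5.3, 4.02, 6.43 and 13.6 CPM in AppNLGF libraries (log2 -1.0 ± 0.26, adjusted p = 0.112). The highest value of both genes belonged to AppNLGF 17.

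Irf7, a transcription factor that amplifies the response, had 1.19 to 2.19 CPM (median 1.51) in AppNLGF_p16KO libraries, against 1.26, 2.74, 2.3, 2.54 and 4.2 CPM in AppNLGF libraries (log2 -0.74 ± 0.23, adjusted p = 0.112). The GTPase gene Mx1 was scarce, at 0.105 to 0.36 CPM (median 0.172) in AppNLGF_p16KO, against 0.146 to 1.52 CPM (median 0.552) in AppNLGF (log2 -1.55 ± 0.41, adjusted p = 0.112). Oasl2, related to the oligoadenylate synthetases, was at 2.18 to 3.59 CPM (median 2.69) in AppNLGF_p16KO, against 3.67 to 11.1 CPM (median 3.75) in AppNLGF (log2 -0.92 ± 0.26, adjusted p = 0.112). Stat2, the abundant signal transducer, was at 17.9 to 28.2 CPM (median 22.1) in AppNLGF_p16KO, against 23.0 to 28.4 CPM (median 27.1) in AppNLGF (log2 -0.23 ± 0.09, adjusted p = 0.151). Irf7, Mx1, Oasl2 and Stat2 passed without AppNLGF_p16KO 23, at log2 -0.86, -1.79, -0.97 and -0.31. The most abundant members gave no common direction, with log2 -0.03 ± 0.12, adjusted p = 0.91 for Ifi27 and log2 0.18 ± 0.09, adjusted p = 0.219 for Cmpk2. The promoters of Ifit1 and Ifit3 shown above each hold 2 copies of the interferon motif.

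AppNLGF 17 carried part of that difference. Its mean log2 level over the list was 2.57, against 1.76 to 1.98 in the other AppNLGF libraries and 1.46 to 1.72 in AppNLGF_p16KO. Without AppNLGF 17 the median log2 fold change was -0.30, and 0 were called, with 1 higher and 8 lower at an unadjusted p under 0.05. Without it Ifit3 was at log2 -0.60, Mx1 at -0.93 and Oasl2 at -0.49. In p16KO minus WT the list median was -0.30, with 0 higher and 8 lower at an unadjusted p under 0.05 (all genes 9.24% and 6.57%) and 0 called. The interaction had an unadjusted p under 0.05 for 0 of 34 genes.

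**Figure D4:**
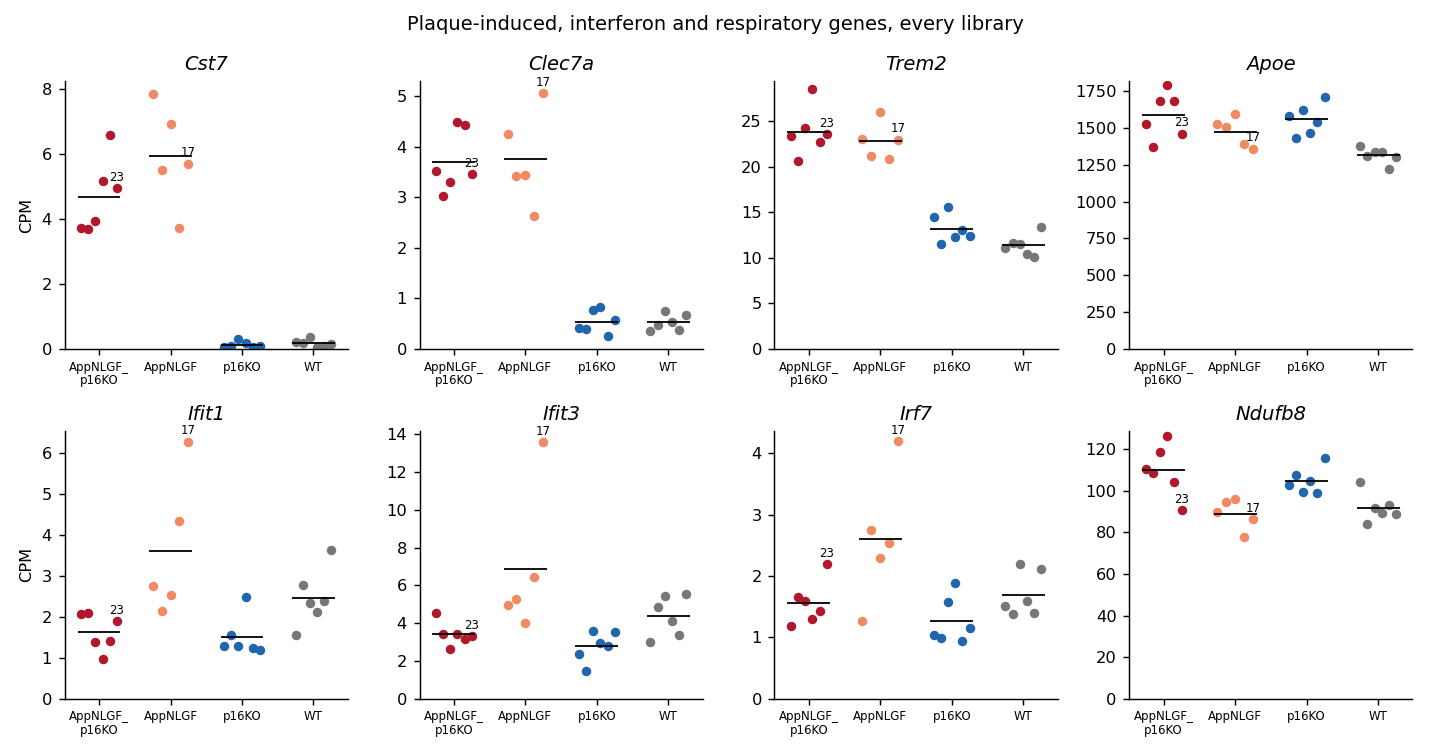
Levels in every library (points) with group means (lines), in CPM on axes that start at 0, with AppNLGF 17 and AppNLGF_p16KO 23 numbered. Plaque-induced genes (Cst7, Clec7a, Trem2, Apoe) overlap between AppNLGF_p16KO and AppNLGF, Ifit1 does not overlap, and at Ndufb8 AppNLGF_p16KO 23 is the lowest of its group at 90.6 CPM.

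App and the proteins that process it did not pass with all libraries. App was at 1457 to 1643 CPM (median 1543) in AppNLGF_p16KO libraries, against 1614, 1515, 1562, 1622 and 1505 CPM in AppNLGF libraries (log2 -0.01 ± 0.05, adjusted p = 0.922, 95% interval -0.10 to 0.08). The 24 genes of App processing had a median log2 of 0.03, with 3 higher and 3 lower at an unadjusted p under 0.05. Sorl1, a sorting receptor that keeps App from cleavage, was at 367 to 423 CPM (median 373) in AppNLGF_p16KO, against 419 to 469 CPM (median 429) in AppNLGF (log2 -0.19 ± 0.06, adjusted p = 0.112) and below the AppNLGF mean in 6 of 6 libraries. Lrp1, a large endocytic receptor for Apoe and amyloid-beta, was at 139.5 to 346 CPM (median 187) in AppNLGF_p16KO, against 239 to 363 CPM (median 246) in AppNLGF (log2 -0.47 ± 0.20, adjusted p = 0.168). Its highest value in the group belonged to AppNLGF_p16KO 23. Without that library both passed, Sorl1 at log2 -0.21, adjusted p = 0.0135 (range over all alternatives 0.00235 to 0.317) and Lrp1 at log2 -0.69, adjusted p = 0.0086 (2.91e-04 to 0.396). In that fit 10.1% of all genes were called lower. Leaving out the highest Lrp1 value of the group favours a pass, so this is a description.

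Nuclear genes of oxidative phosphorylation were higher together. None of the 73 was called with all libraries, while 61 were higher and 1 lower at an unadjusted p under 0.05, the median log2 fold change was 0.23 and 71 were above 0 (52.1% of all genes were). Without AppNLGF_p16KO 23, 60 were called higher and 1 lower, and the median was 0.29. The median in p16KO minus WT was 0.16, with 3 called. There 38 were higher and 0 lower at an unadjusted p under 0.05 (all genes 9.24% and 6.57%). Ndufb8, of complex I, had 90.6 to 127 CPM (median 109.6) in AppNLGF_p16KO libraries, against 89.9, 94.9, 95.9, 77.7 and 86.6 CPM in AppNLGF libraries (log2 0.31 ± 0.07, adjusted p = 0.112). AppNLGF_p16KO 23 held the lowest value of its group and the other 5 lay above all AppNLGF libraries. Higher values extended over the complexes. Sdhb of complex II had 114 to 154 CPM (median 139) in AppNLGF_p16KO, against 109 to 125 CPM (median 116) in AppNLGF (log2 0.23 ± 0.06, adjusted p = 0.112), Uqcrc2 of complex III 209.8 to 286 CPM (median 273) in AppNLGF_p16KO, against 210.1 to 235 CPM (median 231) in AppNLGF (log2 0.23 ± 0.06, adjusted p = 0.112) and Cox7a2 of complex IV 109 to 149.8 CPM (median 139) in AppNLGF_p16KO, against 101 to 123 CPM (median 116) in AppNLGF (log2 0.25 ± 0.07, adjusted p = 0.112). The abundant ATP synthase genes Atp5a1 and Atp5b had 1105 ± 141 CPM in AppNLGF_p16KO and 937 ± 49.4 CPM in AppNLGF (log2 0.24 ± 0.07, adjusted p = 0.112) and 1519 ± 189 CPM in AppNLGF_p16KO and 1286 ± 68.9 CPM in AppNLGF (log2 0.24 ± 0.07, adjusted p = 0.112). Without AppNLGF_p16KO 23 these 6 genes passed, at log2 0.28 to 0.35.

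Genes encoded by the mitochondrial genome did not share this direction. Of 7 tested, 6 were below 0, with a median log2 of -0.15, 0 higher and 3 lower at an unadjusted p under 0.05 and 0 called. Without AppNLGF_p16KO 23, 3 of the 7 were called lower (10.1% of all genes). mt-Nd5, a complex I subunit, had 1559 to 3050.0 CPM (median 2041) in AppNLGF_p16KO, against 2535 to 3272 CPM (median 2948) in AppNLGF (log2 -0.42 ± 0.15, adjusted p = 0.127). mt-Co1 and mt-Cytb had log2 0.04 ± 0.07, adjusted p = 0.773 and log2 -0.10 ± 0.06, adjusted p = 0.356. The mitochondrial share of all counts was 3.30% to 3.76% in AppNLGF_p16KO and 3.74% to 3.99% in AppNLGF.

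Proteasome subunit genes were higher as well. Of 32 genes, 23 were higher and 0 lower at an unadjusted p under 0.05, 0 were called, and the median log2 was 0.18. Without AppNLGF_p16KO 23, 25 were called, all higher. Values in p16KO minus WT were a median of 0.08, 8 higher and 0 lower at an unadjusted p under 0.05, and 0 called. Psmb7, a catalytic subunit of the core, had 95.5 to 129 CPM (median 122) in AppNLGF_p16KO libraries, against 97.8, 102, 94.0, 91.7 and 102 CPM in AppNLGF libraries (log2 0.29 ± 0.07, adjusted p = 0.112), and Psmb1, another core subunit, 108 to 149.5 CPM (median 147) in AppNLGF_p16KO, against 108 to 124 CPM (median 118) in AppNLGF (log2 0.26 ± 0.07, adjusted p = 0.112). At both genes AppNLGF_p16KO 23 was the lowest of its group and the other 5 lay above all AppNLGF libraries. Psmc5 and Psmd2 of the regulatory cap had log2 0.21 ± 0.07, adjusted p = 0.112 and log2 0.21 ± 0.06, adjusted p = 0.112.

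Of 79 cytosolic ribosomal protein genes, 31 were higher and 0 lower at an unadjusted p under 0.05, 0 were called, and the median log2 was 0.15. Without AppNLGF_p16KO 23, 24 were called higher, and without AppNLGF_p16KO 21, 18 were higher at an unadjusted p under 0.05 and 0 called. The p16KO minus WT median was 0.17, with 37 higher and 0 lower at an unadjusted p under 0.05 and 6 called. The most abundant members, Rpl4 and Rplp1, had 452 ± 31.5 CPM in AppNLGF_p16KO and 408 ± 23.2 CPM in AppNLGF (log2 0.15 ± 0.05, adjusted p = 0.131) and 324 ± 47.5 CPM in AppNLGF_p16KO and 269 ± 36.0 CPM in AppNLGF (log2 0.27 ± 0.10, adjusted p = 0.136). Ribosomal genes have many processed copies in the genome, so reads of single members are uncertain.

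Cholesterol and fatty acid synthesis, driven in brain by SREBP factors, was higher in AppNLGF_p16KO. Of 26 genes 17 were higher and 0 lower at an unadjusted p under 0.05, 0 were called, and the median log2 was 0.22. In p16KO minus WT the median was -0.02, with 0 higher and 0 lower. The difference between the contrasts had an unadjusted p under 0.05 for 7 of 26 genes (5.26% of all genes) and 0 passed. Without AppNLGF_p16KO 23, 16 were called higher and 1 lower, and without AppNLGF_p16KO 21, 11 were higher at an unadjusted p under 0.05 and 0 called.

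Sqle, squalene epoxidase, had 71.0 to 121 CPM (median 93.9) in AppNLGF_p16KO, against 66.1 to 82.8 CPM (median 78.6) in AppNLGF (log2 0.30 ± 0.10, adjusted p = 0.114) and Cyp51, lanosterol demethylase, 68.9 to 115 CPM (median 90.9) in AppNLGF_p16KO, against 69.2 to 78.5 CPM (median 76.5) in AppNLGF (log2 0.31 ± 0.10, adjusted p = 0.112). Fdps, farnesyl diphosphate synthase, had 4.23 to 6.63 CPM (median 5.49) in AppNLGF_p16KO, against 3.41 to 4.46 CPM (median 3.86) in AppNLGF (log2 0.45 ± 0.14, adjusted p = 0.112). Hmgcs1 and Scd2, the most abundant members, had 346 ± 88.8 CPM in AppNLGF_p16KO and 286 ± 37.9 CPM in AppNLGF (log2 0.27 ± 0.13, adjusted p = 0.196) and 2149.8 ± 259 CPM in AppNLGF_p16KO and 1905 ± 103 CPM in AppNLGF (log2 0.17 ± 0.07, adjusted p = 0.143). In haem synthesis Alad was the called gene of 13, with a list median of 0.14. Urod, a later enzyme on chromosome 4, was higher than the AppNLGF mean in 6 of 6 libraries, at 38.5 to 54.1 CPM (median 45.0) in AppNLGF_p16KO, against 35.5 to 41.5 CPM (median 36.9) in AppNLGF (log2 0.28 ± 0.07, adjusted p = 0.112).

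**Figure D5:**
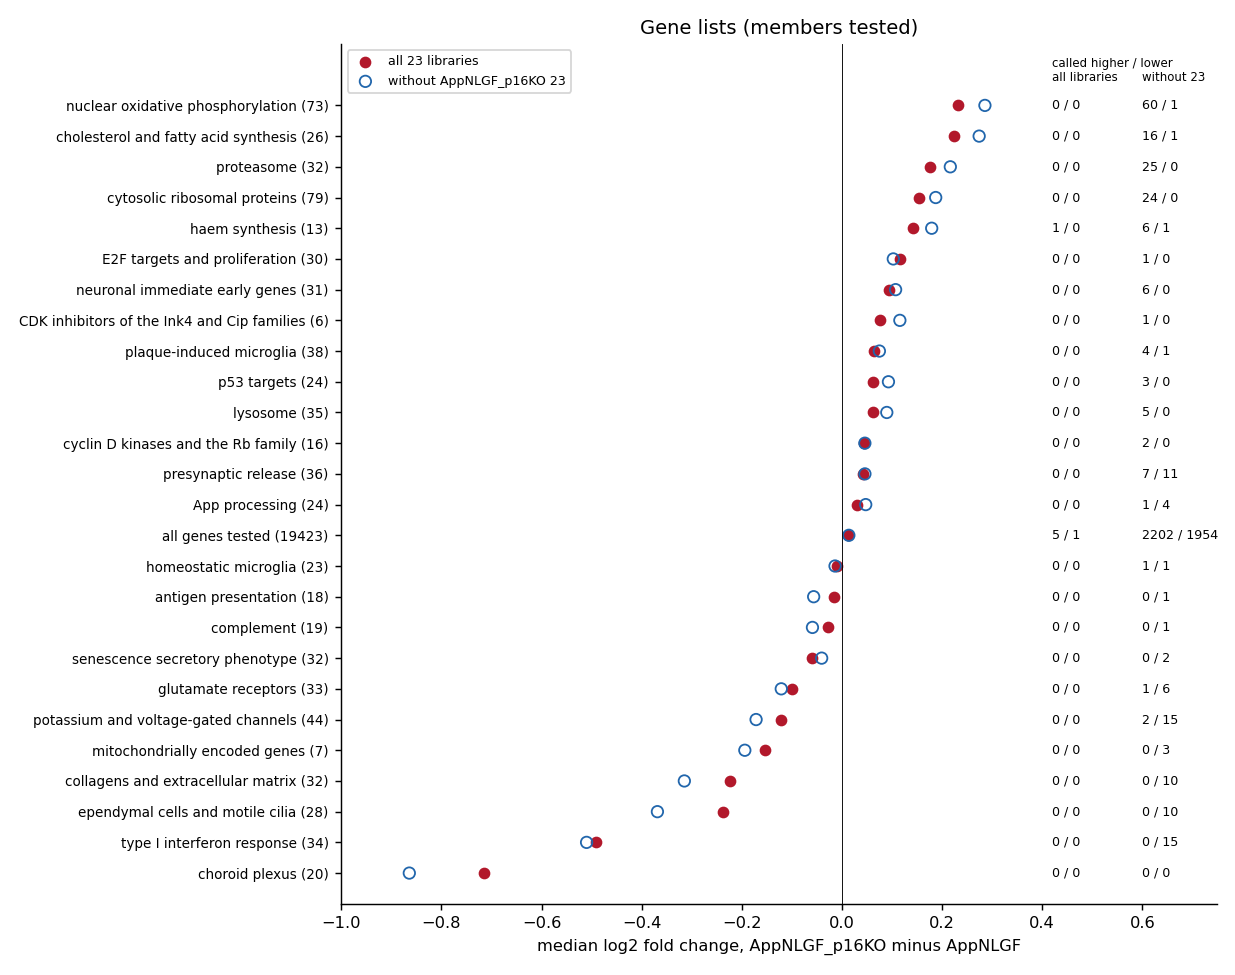
Median log2 fold change, AppNLGF_p16KO minus AppNLGF, of each gene list (number of members tested in brackets) with all 23 libraries (filled) and without AppNLGF_p16KO 23 (open). The numbers at the right count members called higher and lower in each fit, and the row of all genes gives 5 and 1 with all libraries and 2202 and 1954 without AppNLGF_p16KO 23, of 19342 genes then tested.

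These groups differ in transcript length, and the length trend bears on them. The median length was 607 bases for oxidative phosphorylation, 841 for the proteasome, 629 for ribosomal proteins and 1629 for cholesterol synthesis, against 1466 over all genes. With the length trend removed and all libraries kept, the medians were 0.19 for oxidative phosphorylation, 0.15 for the proteasome, 0.11 for ribosomal proteins and 0.22 for cholesterol synthesis. The p16KO minus WT medians given above for these lists still hold the length trend of that contrast. With AppNLGF_p16KO 23 left out as well, 3783 genes were called (19.6%), and 54, 23, 16 and 16 members of these lists were called higher (10.6% of all genes).

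Channel genes were mixed in direction, with more of them lower. Of 44 genes of potassium and other voltage-gated channels, 3 were higher and 15 lower at an unadjusted p under 0.05, 0 were called, and the median log2 was -0.12. Without AppNLGF_p16KO 21, 2 were higher and 10 lower. Without AppNLGF_p16KO 23, 2 were called higher and 15 lower. For p16KO minus WT the median was -0.16, with 1 higher and 13 lower at an unadjusted p under 0.05 and 0 called. Cacna1e, the R-type calcium channel, had 213 to 419 CPM (median 312) in AppNLGF_p16KO, against 366 to 483 CPM (median 433) in AppNLGF (log2 -0.44 ± 0.13, adjusted p = 0.112), and Scn8a, the sodium channel Nav1.6, 215 to 395 CPM (median 275) in AppNLGF_p16KO, against 306 to 423 CPM (median 352) in AppNLGF (log2 -0.35 ± 0.12, adjusted p = 0.127). Both genes passed without AppNLGF_p16KO 23, at log2 -0.54 and -0.47. The abundant member Kcnab2, an auxiliary subunit of potassium channels, had log2 0.01 ± 0.06, adjusted p = 0.905. The list has a median length of 2745 bases, and with the length trend removed its median was -0.08, with 6 higher and 11 lower.

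At the synapse, directions differed between genes. Glutamate receptor genes had a median log2 of -0.10, with 1 of 33 higher and 7 lower at an unadjusted p under 0.05 and 0 called. Without AppNLGF_p16KO 21 the median was -0.06 with 1 higher and 3 lower, and without AppNLGF_p16KO 23, 1 was called higher and 6 lower. The contrast p16KO minus WT gave a median of -0.10, with 2 higher and 5 lower at an unadjusted p under 0.05 and 1 called. Grin2b and Grin2a, NMDA receptor subunits, had 227 to 564 CPM (median 415) in AppNLGF_p16KO, against 429 to 670.0 CPM (median 587) in AppNLGF (log2 -0.48 ± 0.17, adjusted p = 0.127) and 185 to 290.1 CPM (median 266) in AppNLGF_p16KO, against 273 to 342 CPM (median 326) in AppNLGF (log2 -0.30 ± 0.10, adjusted p = 0.119). Both were below the AppNLGF mean in 6 of 6 libraries. The AMPA receptor genes Gria1 and Gria2 had log2 -0.16 ± 0.08, adjusted p = 0.211 and log2 -0.27 ± 0.12, adjusted p = 0.177.

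Presynaptic release genes were at a median log2 of 0.04 with 8 of 36 higher and 8 lower at an unadjusted p under 0.05 and 0 called. Without AppNLGF_p16KO 23, 7 were called higher and 11 lower. Rims1, a scaffold of the active zone, had 113 to 191 CPM (median 134) in AppNLGF_p16KO, against 159 to 198 CPM (median 179) in AppNLGF (log2 -0.33 ± 0.10, adjusted p = 0.112) and Unc13a, which primes vesicles, 124 to 295 CPM (median 161) in AppNLGF_p16KO, against 207 to 290.0 CPM (median 238) in AppNLGF (log2 -0.47 ± 0.18, adjusted p = 0.143). The vesicle GTPase gene Rab3a was at 668 to 810.3 CPM (median 714) in AppNLGF_p16KO, against 588 to 655 CPM (median 637) in AppNLGF (log2 0.21 ± 0.06, adjusted p = 0.112). Snap25 and Syt1, the most abundant members, had log2 0.09 ± 0.06, adjusted p = 0.322 and log2 -0.05 ± 0.06, adjusted p = 0.617.

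Immediate early genes, which follow neuronal firing, were at a median log2 of 0.09, with 5 of 31 higher and 0 lower at an unadjusted p under 0.05 and 0 called. Without AppNLGF_p16KO 23, 6 were called, all higher, and without AppNLGF 17, 1 was higher at an unadjusted p under 0.05. Egr2 had 2.23 to 4.26 CPM (median 3.27) in AppNLGF_p16KO libraries, against 2.0, 2.45, 1.84, 1.51 and 2.0 CPM in AppNLGF libraries (log2 0.75 ± 0.21, adjusted p = 0.112). In p16KO minus WT it was at log2 -0.10 (adjusted p = 0.839). Homer1 and Jund, the most abundant members, had log2 0.05 ± 0.08, adjusted p = 0.722 and log2 0.09 ± 0.09, adjusted p = 0.563.

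Among extracellular matrix genes more were lower, with 1 of 32 higher and 9 lower at an unadjusted p under 0.05, 0 called and a median log2 of -0.22. Without AppNLGF_p16KO 23, 0 were called higher and 10 lower. Their p16KO minus WT median was -0.23, with 0 higher and 8 lower at an unadjusted p under 0.05 and 0 called. Fbn1, the microfibril protein fibrillin, had 10.3 to 15.3 CPM (median 13.1) in AppNLGF_p16KO libraries, against 18.2, 16.8, 17.6, 18.0 and 17.4 CPM in AppNLGF libraries (log2 -0.45 ± 0.11, adjusted p = 0.112). The groups did not overlap. The basement membrane laminin gene Lama2 had 11.6 to 15.8 CPM (median 13.9) in AppNLGF_p16KO, against 15.3 to 20.2 CPM (median 17.1) in AppNLGF (log2 -0.31 ± 0.08, adjusted p = 0.112) and the collagen gene Col4a1 12.5 to 33.1 CPM (median 15.7) in AppNLGF_p16KO, against 21.2 to 31.8 CPM (median 26.9) in AppNLGF (log2 -0.51 ± 0.24, adjusted p = 0.195). Sparc and Sparcl1, the most abundant members, had log2 0.20 ± 0.10, adjusted p = 0.224 and log2 -0.06 ± 0.06, adjusted p = 0.579. Markers of meninges and fibroblasts were at a median log2 of 0.05, with a summed level of 589 to 918 CPM in AppNLGF_p16KO and 496 to 1112 CPM in AppNLGF, and 0 of the 22 were absent. Their part in the result was not tested.

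Genes of ependymal cells and motile cilia were lower in 22 of 28 cases, with 0 higher and 11 lower at an unadjusted p under 0.05, 0 called and a median log2 of -0.24. Without AppNLGF_p16KO 23, 10 were called lower. The dynein gene Dnah6 had 1.73 to 5.38 CPM (median 2.66) in AppNLGF_p16KO libraries, against 4.82, 8.7, 6.54, 7.81 and 7.72 CPM in AppNLGF libraries (log2 -1.17 ± 0.34, adjusted p = 0.112), Dnah11 0.472 to 2.55 CPM (median 1.09) in AppNLGF_p16KO, against 2.1 to 3.43 CPM (median 2.69) in AppNLGF (log2 -1.12 ± 0.35, adjusted p = 0.112) and the central pair gene Hydin 0.543 to 1.68 CPM (median 0.642) in AppNLGF_p16KO, against 1.12 to 1.69 CPM (median 1.55) in AppNLGF (log2 -0.87 ± 0.26, adjusted p = 0.112). Foxj1, the regulator of motile cilia, was at 9.27 ± 2.41 CPM in AppNLGF_p16KO and 10.0 ± 1.38 CPM in AppNLGF (log2 -0.11 ± 0.20, adjusted p = 0.757), and Rarres2 at 8.5 ± 0.933 CPM in AppNLGF_p16KO and 7.66 ± 0.815 CPM in AppNLGF (log2 0.15 ± 0.11, adjusted p = 0.386). The list summed to 72.1 to 115 CPM in AppNLGF_p16KO and 99.4 to 123 CPM in AppNLGF.

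Choroid plexus markers, which reach a hippocampal dissection from the adjoining ventricle, were lower in 20 of 20 cases at a median log2 of -0.72, and 0 had an unadjusted p under 0.05. Ttr, the transthyretin gene, was at 232 to 2386 CPM (median 1330.0) in AppNLGF_p16KO, against 1335 to 3540.0 CPM (median 1804) in AppNLGF (log2 -0.73 ± 0.71, adjusted p = 0.556), and Kl, encoding klotho, at 63.6 ± 21.1 CPM in AppNLGF_p16KO and 102 ± 32.5 CPM in AppNLGF (log2 -0.68 ± 0.41, adjusted p = 0.32). The summed level was 398 to 2829 CPM in AppNLGF_p16KO and 1702 to 4198 CPM in AppNLGF and overlapped between the groups. No choroid plexus marker was at 0 in either group. In this comparison the medians of these markers and of the ciliary genes were both negative. In p16KO minus WT they differed in sign, at 0.20 for choroid plexus and -0.06 for ciliary genes. The part of choroid plexus in the ciliary values was not tested.

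For other cell type lists the median log2 was 0.11 for astrocytes, 0.16 for oligodendrocytes, -0.09 for oligodendrocyte precursors, 0.03 for interneurons, -0.01 for endothelial cells and 0.04 for immature neurons, and 0 members of these lists were called with all libraries. Markers of neighbouring regions were at -0.04 for neocortex, 0.06 for thalamus and habenula and -0.03 for striatum. Dentate granule cell genes were at -0.13, with 0 of 15 higher and 3 lower at an unadjusted p under 0.05.

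Among the 4156 genes called without AppNLGF_p16KO 23, some with the smallest p belong to no list and are named after their values were seen. Rnf213, a large ring-finger ATPase, had 6.34 to 16.7 CPM (median 8.11) in AppNLGF_p16KO, against 12.1 to 22.1 CPM (median 18.0) in AppNLGF with all libraries (log2 -0.91 ± 0.22, adjusted p = 0.112) and log2 -1.17, adjusted p = 0.00294 without AppNLGF_p16KO 23 (range over all alternatives 3.40e-08 to 0.317). Fat1, an atypical cadherin, had 29.5 to 55.0 CPM (median 33.7) in AppNLGF_p16KO, against 45.3 to 62.4 CPM (median 49.1) in AppNLGF (log2 -0.50 ± 0.13, adjusted p = 0.112), and Dnmt3a, a DNA methyltransferase, 50.8 to 84.0 CPM (median 55.1) in AppNLGF_p16KO, against 67.2 to 85.6 CPM (median 79.6) in AppNLGF (log2 -0.39 ± 0.10, adjusted p = 0.112).

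Whether the effect of p16 loss differed between App backgrounds was tested by the interaction, (AppNLGF_p16KO minus AppNLGF) minus (p16KO minus WT). By edgeR 0 of 19423 genes passed (0%), and 1021 had an unadjusted p under 0.05 (5.26%). DESeq2 called 1 gene. Without AppNLGF_p16KO 23 edgeR again called 0. C5ar2, a receptor of complement C5a, had the smallest p, with 0.699 to 0.861 CPM (median 0.819) in AppNLGF_p16KO libraries, against 1.26, 0.932, 1.17, 1.05 and 1.15 CPM in AppNLGF libraries. In p16KO it had 0.846 ± 0.196 CPM against 0.604 ± 0.0825 CPM in WT, a log2 difference of opposite sign (0.49, against -0.46 in AppNLGF_p16KO), and the interaction did not pass (adjusted p = 0.897). Bnip5 was next, with 7.2 ± 0.845 CPM in AppNLGF_p16KO and 5.85 ± 0.831 CPM in AppNLGF, against 5.2 ± 0.573 CPM in p16KO and 6.47 ± 0.728 CPM in WT (interaction adjusted p = 0.897). A difference of the p16 effect between backgrounds was not shown for any single gene by edgeR.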

How the data were processed

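Polyadenylated RNA of hippocampi was sequenced single-end in 23 libraries. The deposited values are raw counts of uniquely aligned reads per Ensembl 102 gene, not normalized. Per the labels and the series' design text these counts came from reads trimmed with cutadapt 4.2, cleared of ribosomal RNA with Bowtie2 2.3.5 and aligned with STAR 2.7.10b to GRCm38. The submitters' processing notes also name DESeq2 1.45.3 and the build mm39. Coordinates here are those of GRCm38, the build of the design text. Transcript lengths are medians given in the authors' table. From the counts, edgeR 4.0.16 in R 4.3.3 was run with TMM scaling, a filter on low counts (minimum 10), a robust quasi-likelihood fit of all 23 libraries in 4 groups and Benjamini-Hochberg adjustment over 19423 genes. Library totals were 40.7 to 61.2 M reads, and the common biological coefficient of variation was 15.8%. Of 37173 genes, those below the filter were left out, and no library was. The test was checked on simulated counts drawn independently for each library, with no outlying library and no length trend. That check does not bear on the changes seen when single libraries were left out.

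Alternatives were scaling, filters, DESeq2 1.42.0, fewer libraries, sex, 1 surrogate variable (sva 3.50.0) and gene length. The sex alternative used a score of Xist against genes of the Y chromosome. The surrogate variable had the sign of that score in every library, so it is not an alternative separate from sex. Named genes are the called genes with the smallest p, other genes with the smallest p up to 20 in all, the 2 most abundant members of lists with no call, the 2 with the smallest interaction p, and Cdkn2a, Cdkn2b, Mtap and App. Predicted genes are left out by that rule, and 1 gene it names is not reported here. The other genes given were chosen after their values were seen. The comparison and all 47 lists were chosen with earlier results of these data known. Sequences are from RefSeq.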

Additional observations from a re-analysis of the deposited data

Results flagged for a closer look

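A library that stood far from the rest of its group (Dixon's criterion) was found in 23 of 256 groups of values tested, where chance gives about 1 in 20. Many of these genes were chosen after their values were seen, so the count is a description. No explanation is weighed for any of them.

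AppNLGF_p16KO 23 stood far below its group, by this criterion, at 6 genes. It held 210.0 CPM (the others 260.0 to 286) at Uqcrc2 and 108 CPM (the others 139 to 149) at Psmb1. It held 95.5 CPM (the others 118 to 129) at Psmb7 and 223 CPM (the others 267 to 289) at Atp6v0d1. It held 112 CPM (the others 133 to 144) at Ei24 and 19.6 CPM (the others 24.4 to 27.2) at Pcna. It stood far above its group at 7 genes, some of them chosen for a small p in the fit without it. Its level was 346 CPM (the others 139 to 212) at Lrp1, 295 CPM (the others 124 to 180.0) at Unc13a and 395 CPM (the others 215 to 281) at Scn8a. Its level was 84.0 CPM (the others 50.8 to 58.0) at Dnmt3a and 55.0 CPM (the others 29.5 to 34.5) at Fat1. Rnf213 stood at 16.7 CPM (the others 6.34 to 8.83) and Hydin at 1.68 CPM (the others 0.542 to 0.693).

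AppNLGF_p16KO 22 held 0.0374 CPM (the others 0.337 to 0.468) at Cyp2j13, 505 CPM (the others 361 to 410.0) at Frrs1l and 9.58 CPM (the others 5.35 to 6.87) at Pcdhga2. AppNLGF_p16KO 21 held 40.5 CPM (the others 47.3 to 51.3) at Rb1.

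Among AppNLGF libraries, AppNLGF 17 was high in the interferon response, at 13.6 CPM (the others 4.02 to 6.43) for Ifit3 and 11.1 CPM (the others 3.67 to 4.92) for Oasl2. Its mean log2 level over the interferon list was 2.57, with 1.76 to 1.98 in the others. AppNLGF 16 was low at C1qa, with 52.7 CPM (the others 65.0 to 69.8), and at C1qb, with 50.5 CPM (the others 64.6 to 67.7). AppNLGF 15 held 1.7 CPM (the others 2.58 to 2.91) at Ly6g6e.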

How the results depend on the processing

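The number of genes called in AppNLGF_p16KO minus AppNLGF, 6 as reported, was 17 with no filter on low counts, 0 with the compared groups alone and 198 by DESeq2. Leaving out 1 library gave 2 to 4156, the highest without AppNLGF_p16KO 23. Settings chosen after seeing the data gave 4203 without AppNLGF_p16KO 22 and 23, 3783 without AppNLGF_p16KO 23 and the length trend, and 4453 without AppNLGF_p16KO 23 by DESeq2. In p16KO minus WT, 60 as reported, the count was 356 with the compared groups alone, 189 without libraries past the distance limit, 32 with the length trend removed and 438 by DESeq2, and 7 to 239 without 1 library. The interaction count was 0 by edgeR in all settings run and 1 by DESeq2. The causes of these changes were not tested. No paired analysis was possible because the sample numbers in the labels run 1 to 23 with none shared between groups.

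Some genes that did not pass took the opposite sign under another setting, in log2 fold change. Without 1 library the ranges were -0.032 to 0.0086 for App, -0.0053 to 0.11 for C1qa, -0.081 to 0.060 for C1qb, -0.031 to 0.049 for Ccnd2, -0.0075 to 0.073 for Cdkn1b, -0.13 to 0.11 for Clec7a, -0.091 to 0.040 for Ifi27, -0.012 to 0.059 for Kcnab2, -0.016 to 0.067 for mt-Co1 and -0.088 to 0.00052 for Syt1. Without AppNLGF_p16KO 21 by the distance limit, it was 0.00011 for App, -0.055 for C1qb, -0.0063 for Kcnab2 and 0.00052 for Syt1. With the length trend removed, it was 0.043 for App, -0.026 for C1qb, -0.017 for Ccnd2, -0.011 for Kcnab2 and 0.0022 for Syt1. Without AppNLGF_p16KO 23 and the length trend, it was 0.039 for App, -0.0053 for C1qb, -0.028 for Ccnd2, -0.023 for Kcnab2 and 0.0088 for Syt1. With RLE size factors, it was -0.0082 for C1qb. With no filter, it was -0.00078 for C1qb. With the submitters' filter, it was -0.010 for C1qb. With the compared groups alone, it was -0.0056 for C1qb. By DESeq2, it was -0.0083 for C1qb. Without AppNLGF_p16KO 22 and 23, it was -0.054 for C1qb and -0.040 for Kcnab2. Without AppNLGF_p16KO 23 by DESeq2, it was -0.0021 for Ccnd2 and -0.0045 for Kcnab2. Of the list medians, 595 of 600 alternatives moved by less than the spread between libraries. Many of these alternatives left out 1 library, which usually moves a median by only part of that spread. The count therefore says little on stability. The interferon median, for example, was -0.49 with all libraries and -0.30 without AppNLGF 17. Cdkn2a had 0 to 9 reads in each library of the comparison, and a loss of reads in AppNLGF_p16KO was not found.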
